A study of Mus musculus with 6 samples.

Results

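The 9 enzymes described here make serine and carry its one-carbon units through folate to thymidylate and purines. They are Phgdh, Psat1, Psph, Shmt1, Shmt2, Mthfd1, Mthfd1l, Mthfd2 and Tyms, and were taken from the table by gene symbol; all 9 were found among 41549 genes. Their mRNA was read in 6 libraries from cultured mouse macrophages that had been grown from bone marrow precursors. The marrow came from wild-type C57Bl/6 N mice aged 10 to 12 weeks, and all cells received macrophage colony-stimulating factor for 7 days. Both groups were then polarized for 48 h with IL-4 and IL-13 at 10 ng/ml, which drives the anti-inflammatory M2 state. Before polarization, the cells of 3 libraries (αGlu) were transfected with an antisense oligonucleotide against 5′tRF-Glu(CTC), a fragment that is cut from the 5′ part of a tRNA for glutamate, and 3 (Ctr) with a control oligonucleotide. The fragment itself is too short to be read in mRNA libraries and was not measured in these files, so the knockdown could not be checked here.

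Serine is built from a glycolytic intermediate by Phgdh, Psat1 and Psph in turn. Serine hydroxymethyltransferase then moves a carbon of serine onto tetrahydrofolate and leaves glycine, through Shmt1 in the cytosol and Shmt2 in mitochondria. Mthfd2 and Mthfd1l oxidise that carbon to formate in mitochondria, the trifunctional Mthfd1 takes formate back into the folate pool of the cytosol, and Tyms uses a folate-bound carbon to make thymidylate for DNA. Several genes of the route, among them Psat1, Phgdh, Shmt2 and Mthfd2, are known targets of the amino acid stress factor ATF4, while Tyms is known for its expression in S phase.

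The reagent that separates the groups is shown with its target, because the comparison rests on it. Both come from the study's list of oligonucleotides, and capitals in the target mark the bases that pair with the antisense strand.
αGlu antisense: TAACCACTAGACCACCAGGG
5′tRF-Glu(CTC) target: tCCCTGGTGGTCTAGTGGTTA
The longest run of the 20 antisense-paired bases in transcripts of the 9 enzymes was 10 bases in Mthfd2, 9 in Mthfd1 and Tyms, and 7 or 8 in the others. Over 11923 genes with annotated transcripts the median was 8 and the largest 13 bases, and 0 genes held the run of all 20.

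The libraries held 17912831 to 30386653 counted reads. All 8 macrophage markers, among them Adgre1, Csf1r and Lyz2, lay above 1 CPM in the mean of the 6 libraries. The library αGlu 1 stood apart: over genes, its log2 values correlated with those of the 3 Ctr libraries at r = 0.966 to 0.982 and with the other αGlu libraries at 0.929, while αGlu 2 and αGlu 3 correlated at 0.992 with each other. Arg1, the arginase of M2 macrophages, was at 24.3, 45.2 and 41.5 CPM in Ctr and at 23.5 in αGlu 1. In αGlu 2 and αGlu 3 Arg1 was at 1886 and 1792 CPM. Markers of the IL-4 and IL-13 response were split. Of 8 tested, 3 were lower in αGlu without overlap between the groups and 0 higher, against 15.9% and 14.2% of all genes. Retnla was at 540, 245 and 289 CPM in Ctr and at 101, 0.031 and 0.037 in αGlu. With αGlu 1 left out, edgeR called 3 of the 8 higher, Arg1 among them, and 3 lower (limits given below). Over all genes that fit called 8.05% higher and 10.5% lower. Because αGlu 1 stood apart, the fold change of each enzyme is given with and without that library. It was singled out from these same data, and leaving it out narrows the spread within αGlu. The common dispersion of the edgeR fit, a measure of spread between libraries, was 0.069 with it and 0.020 without. P-values and calls without αGlu 1 are therefore too favourable and are given as a description. Levels of 1 gene across libraries are counts-per-million (CPM) values scaled by the trimmed mean of M-values (TMM), levels of different genes are compared as transcripts-per-million (TPM) values, which also divide by length, and fold changes are αGlu over Ctr.

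Of the 9 enzymes, Psat1 showed the largest difference: its mRNA was about 4-fold lower in αGlu, with no overlap between the groups. Mthfd2 was 2-fold higher on average, through αGlu 2 and αGlu 3 alone, and Tyms was lower with no overlap. For Psph, Shmt1, Shmt2 and Mthfd1 the ratios of mean CPM lay between 0.964 and 1.10. With all 6 libraries, 0 of the 9 passed edgeR's quasi-likelihood test at a Benjamini-Hochberg adjusted p under 0.1 and a log2 fold change beyond 1, and 0 of 11933 genes did (0%). Before adjustment, 3 of the 9 (Psat1, Mthfd2 and Tyms) had a p under 0.05, against 24.7% of all genes tested (2943). With αGlu 1 left out, Mthfd2 was called higher and Psat1 lower, where 8.05% of 12340 genes were called higher and 10.5% lower. DESeq2 on all 6 libraries made the same 2 calls, where it called 4.21% of genes higher and 3.92% lower.

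**Figure D1:**
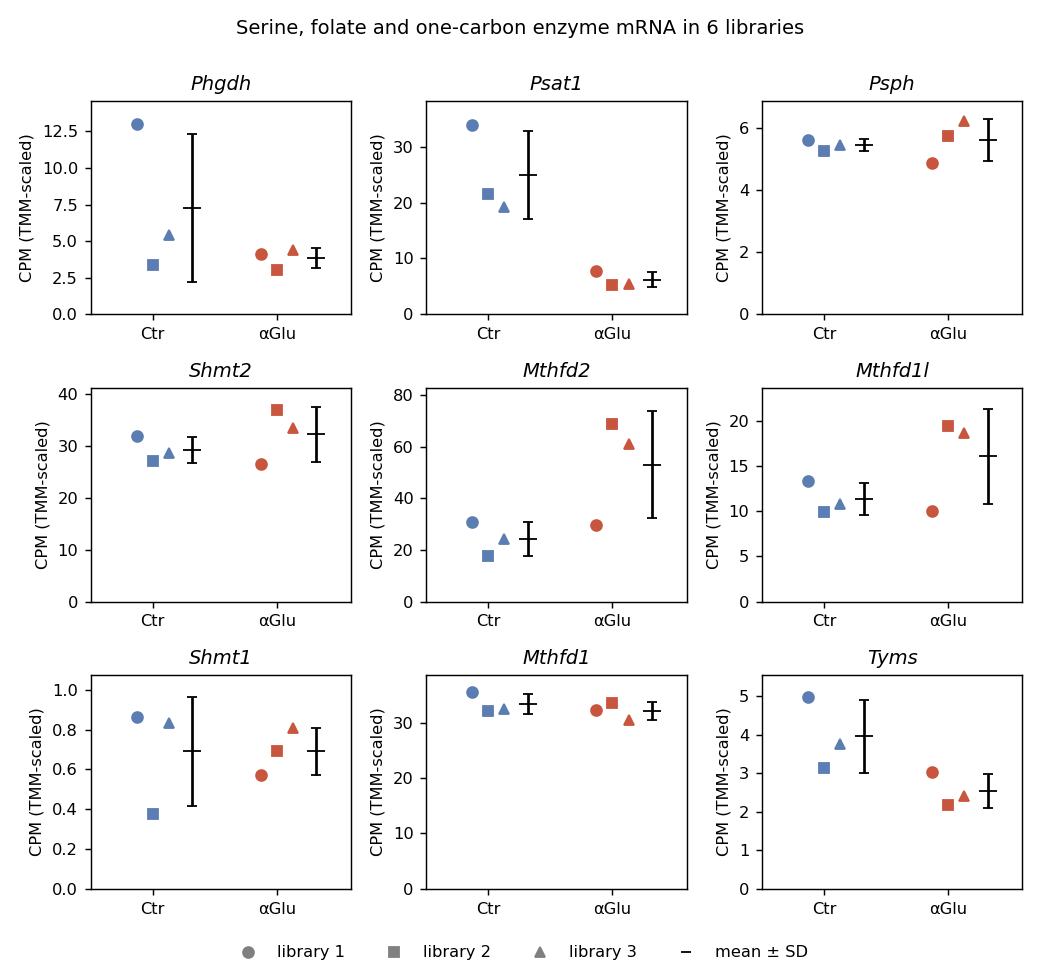
CPM (TMM-scaled, vertical axes from 0) of the 9 enzymes in 3 Ctr and 3 αGlu libraries, with a symbol for each library and the mean ± SD beside it. Psat1 lies lower in all 3 αGlu libraries, at 5.32 to 7.74 against 19.3 to 34.0, while Mthfd2 and Mthfd1l are high in αGlu 2 and αGlu 3 and not in αGlu 1.

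Phgdh, the dehydrogenase that opens serine synthesis (chr3:98313170-98339990, minus strand, GRCm38), was at 12.99, 3.39 and 5.43 CPM in Ctr and at 4.13, 3.05 and 4.36 in αGlu. The groups overlapped, and the library Ctr 1 was more than 2 times as high as any other. The log2 fold change was -0.92 ± 0.51 (SE, edgeR adjusted p = 0.290), and -0.98 without αGlu 1 (adjusted p = 0.215). Without Ctr 1 it was -0.19, so its size rested on that library.

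Psat1, the aminotransferase of the second step (chr19:15904678-15947337, minus strand), had 748, 516 and 415 reads in Ctr and 135, 169 and 150 in αGlu. On the CPM scale these were 34.0, 21.6 and 19.3 against 7.74, 5.32 and 5.50. Every αGlu library, αGlu 1 included, was below every Ctr library, and the lowest Ctr value was more than 2 times the highest αGlu value. The log2 fold change was -2.02 ± 0.27 (SE), a ratio of 0.247 with a 95% interval from 0.155 to 0.393. Its edgeR adjusted p of 0.149 was the smallest of any gene, a value that 248 genes shared, and by unadjusted p Psat1 ranked 18 among 11933 genes. Without αGlu 1 the log2 fold change was -2.21 (edgeR adjusted p = 0.00141), and with DESeq2 on all 6 libraries the adjusted p was 4.11e-08. Over 15 alternative fits and subsets, its log2 fold change lay between -2.21 and -1.72. In bulk RNA such a drop in fewer expressing cells and in less RNA per cell cannot be told apart, which holds for every gene below.

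Psph, the phosphatase that releases serine (chr5:129765558-129787449, minus strand), was at 5.63, 5.27 and 5.48 CPM in Ctr and at 4.87, 5.76 and 6.24 in αGlu. The groups overlapped, with αGlu 1 lowest and αGlu 3 highest. Its log2 fold change was 0.05 ± 0.14 (SE, edgeR adjusted p = 0.851) and 0.13 without αGlu 1, and its 95% interval allowed ratios from 0.809 to 1.32. On the opposite strand Psph overlaps Cct6a, which had up to 3630 reads in a library; the libraries were stranded, but whether counting used strand was not given in the sources used here.

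The balance between the 3 steps of serine synthesis was read per length from the deposited TPM. The ratio of Psat1 to Phgdh TPM was 1.53, 3.72 and 2.07 in Ctr and 1.10, 1.02 and 0.737 in αGlu. The ratio of Psat1 to Psph TPM was 6.14, 4.17 and 3.58 in Ctr and 1.62, 0.940 and 0.898 in αGlu. Both ratios were lower in all 3 αGlu libraries without overlap. Psat1 was the fourth most abundant of the 9 in Ctr, at 17.7 ± 5.98 TPM (SD, n = 3), and the sixth in αGlu, at 4.63 ± 0.885 TPM.

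**Figure D2:**
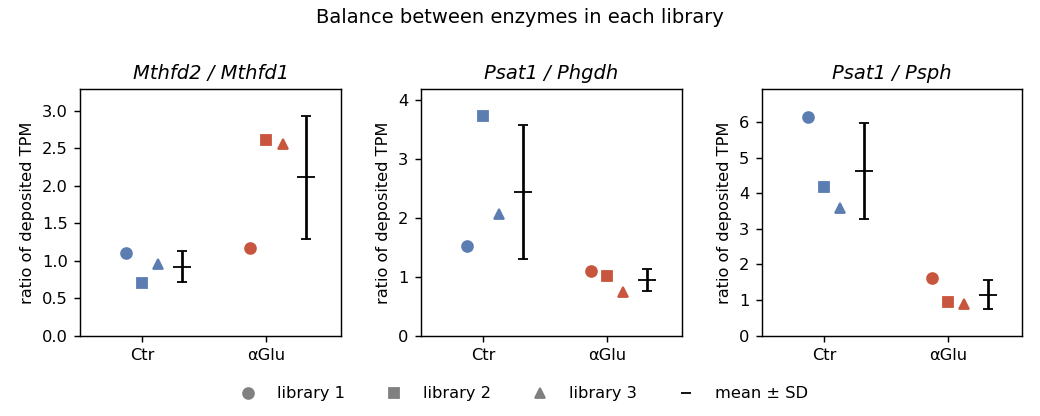
Ratios of deposited TPM between pairs of enzymes in each library (linear axes from 0), with a symbol for each library and the mean ± SD. Mthfd2 over Mthfd1 was higher in αGlu, Psat1 over Phgdh and over Psph lower, and αGlu 1 lies nearest to Ctr for each.

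Shmt2, the mitochondrial hydroxymethyltransferase (chr10:127517123-127522444, minus strand), was at 31.9, 27.1 and 28.6 CPM in Ctr and at 26.4, 36.8 and 33.5 in αGlu. The library αGlu 1 lay below Ctr and the other αGlu libraries above it. With 6 libraries the log2 fold change was 0.14 ± 0.14 (SE, edgeR adjusted p = 0.524, 95% interval of the ratio 0.871 to 1.40), and 0.26 without αGlu 1 (adjusted p = 0.0722), under the fold limit of the call.

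Shmt1, its cytosolic counterpart (chr11:60788104-60811718, minus strand), was nearly silent, with 19, 9 and 18 reads in Ctr and 10, 22 and 22 in αGlu. The groups overlapped, and the exact Poisson interval of the 9 reads in Ctr 2, for counting error only, ran from 4.12 to 17.1 reads. A change below about 2-fold was not detectable at this depth: the log2 fold change was 0.01 ± 0.39 (SE, edgeR adjusted p = 0.984) and 0.12 without αGlu 1, with a 95% interval of the ratio from 0.519 to 1.96. Shmt1 overlaps Smcr8 on the opposite strand, which had up to 4646 reads, so even these few reads are uncertain. Per length, Shmt2 exceeded Shmt1 42.7- to 89.9-fold in Ctr and 51.8- to 66.4-fold in αGlu, and these ranges overlap.

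Mthfd2, the mitochondrial dehydrogenase and cyclohydrolase (chr6:83305691-83325908, minus strand), had 679, 425 and 521 reads in Ctr and 515, 2185 and 1666 in αGlu. In CPM these were 30.8, 17.8 and 24.2 against 29.5, 68.8 and 61.1. The library αGlu 1 lay within the Ctr range, and αGlu 2 and αGlu 3 were each about 2 times the highest Ctr value. With all 6 libraries the log2 fold change was 1.13 ± 0.36 (SE, edgeR adjusted p = 0.162, DESeq2 adjusted p = 0.0358), a ratio of 2.19 with a 95% interval from 1.20 to 4.02. Without αGlu 1 it was 1.42 (edgeR adjusted p = 0.00296).

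Mthfd1l, the mitochondrial ligase that releases formate (chr10:3973118-4167081, plus strand), was at 13.4, 9.95 and 10.8 CPM in Ctr and at 10.04, 19.5 and 18.7 in αGlu. As for Mthfd2, αGlu 1 lay inside the Ctr range and the other αGlu libraries above it. The log2 fold change was 0.50 ± 0.27 (SE, edgeR adjusted p = 0.287), and 0.74 without αGlu 1 (adjusted p = 0.00711), a ratio of 1.68 that stayed under the fold limit of the call.

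Mthfd1, the cytosolic trifunctional enzyme (chr12:76255298-76319803, plus strand), had the narrowest error of the 9, at 35.4, 32.1 and 32.4 CPM in Ctr and 32.3, 33.6 and 30.4 in αGlu. The groups overlapped, with Ctr 1 highest and αGlu 3 lowest. The log2 fold change was -0.05 ± 0.08 (SE, edgeR adjusted p = 0.675) and -0.06 without αGlu 1, and the 95% interval of the ratio ran from 0.844 to 1.10.

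Set against Mthfd1, the mitochondrial genes of the folate route were at higher ratios in αGlu 2 and αGlu 3. The ratio of Mthfd2 to Mthfd1 TPM was 1.11, 0.705 and 0.951 in Ctr and 1.17, 2.61 and 2.56 in αGlu, higher in αGlu without overlap, though by little in αGlu 1. For Mthfd1l over Mthfd1 the ratios were 0.379, 0.310 and 0.333 in Ctr and 0.311, 0.581 and 0.616 in αGlu, and the groups overlapped. Mthfd2 over Psat1, 2 genes that share a known regulator, was 1.11, 1.005 and 1.53 in Ctr and 4.65, 15.8 and 13.6 in αGlu, also without overlap.

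Tyms, thymidylate synthase (chr5:30058202-30073617, minus strand), was at 4.997, 3.13 and 3.76 CPM in Ctr and at 3.04, 2.17 and 2.42 in αGlu. The groups did not overlap, but αGlu 1 and Ctr 2 nearly met, and in the deposited TPM they did overlap. On the log2 scale the fold change was -0.64 ± 0.25 (SE, edgeR adjusted p = 0.190), and -0.79 without αGlu 1 (adjusted p = 0.0537), under the fold limit. The counts were low, at 53 to 110 reads per library.

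**Figure D3:**
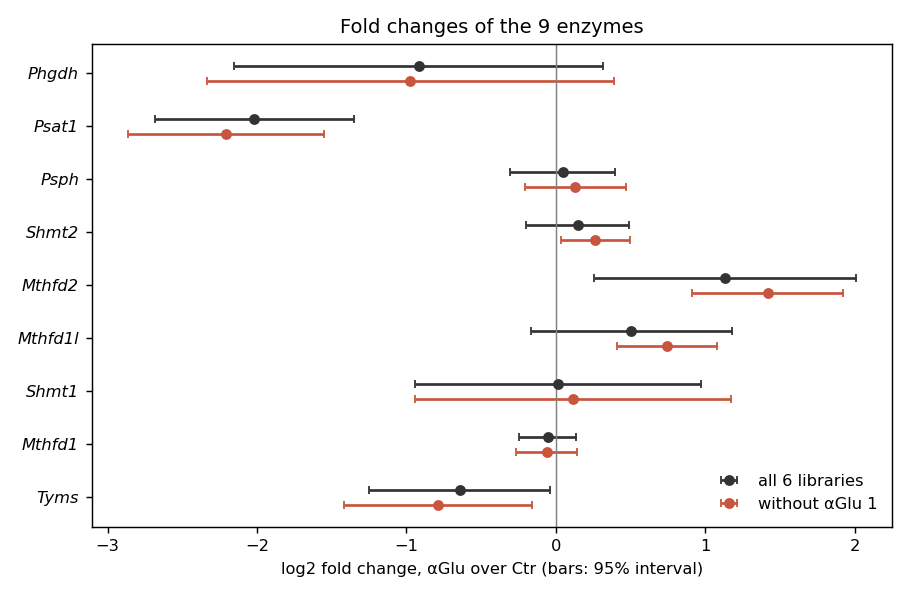
Log2 fold change of αGlu over Ctr for the 9 enzymes, with 95% intervals, from edgeR on all 6 libraries (black) and without αGlu 1 (red). The interval of Psat1 lies far below 0 in both fits, that of Tyms just below 0 and that of Mthfd2 above 0 in both, and those of Mthfd1l and Shmt2 clear 0 without αGlu 1.

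Counted by overlap, 2 of the 9 enzymes were lower in all 3 αGlu libraries (Psat1 and Tyms) and 0 were higher, where 15.9% of the 11933 genes were lower and 14.2% higher without overlap (1902 and 1697). Scaled by library size alone this split of all genes was 1546 lower and 2142 higher, and in deposited TPM 1392 lower and 2565 higher. Without αGlu 1, 6 of the 9 no longer overlapped: Mthfd1l, Mthfd2, Psph and Shmt2 were higher, and Psat1 and Tyms lower. With that library left out, 33.6% of all genes were higher and 32.2% lower without overlap. The median log2 fold change of the 9 was 0.01, and that of all genes was 0.02.

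Per length, the order of the 9 in Ctr was Shmt2 (28.4 TPM), Mthfd1 (22.6), Mthfd2 (21.05), Psat1 (17.7), Phgdh (8.89), Mthfd1l (7.75), Psph (3.80), Tyms (1.97) and Shmt1 (0.539). Neighbours from Mthfd1 down to Mthfd1l overlapped in their ranges, and the other neighbours did not. In αGlu, Mthfd2 came first at 49.0 ± 19.9 TPM (SD, n = 3), with a range that overlapped that of Shmt2 at 33.2 ± 6.08 TPM. Phgdh, Psat1 and Psph, the 3 enzymes of serine synthesis, lay together in αGlu at 4.95, 4.63 and 4.16 TPM, with overlapping ranges between neighbours.

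**Figure D4:**
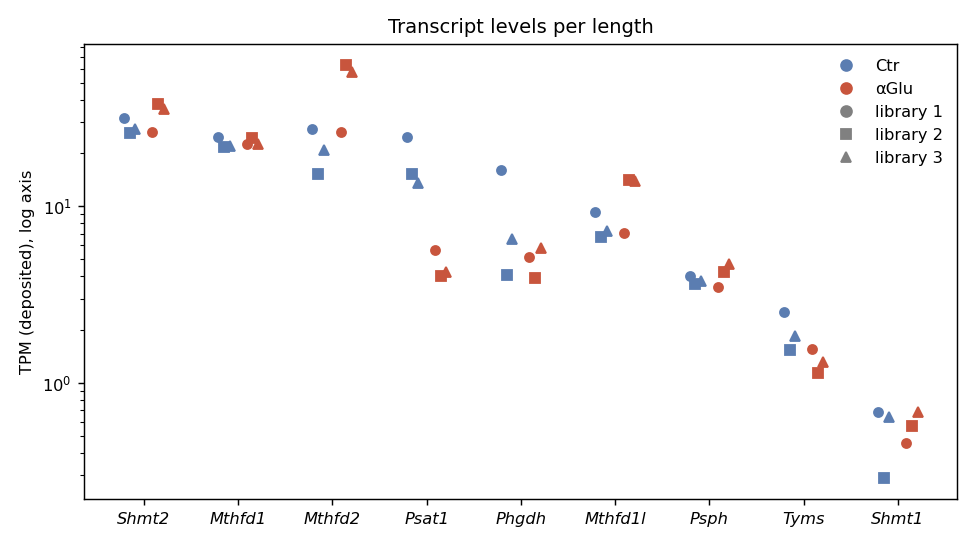
Deposited TPM (log axis) of the 9 enzymes, ordered by their mean in Ctr, with a symbol for each library. Shmt2 leads in Ctr at 28.4 TPM, Mthfd2 in αGlu at 49.0, and Shmt1 is lowest in both groups.

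Over the 6 libraries the 9 enzymes fell into patterns that are given as a description, since the points share libraries and groups. The highest correlations were those of Mthfd1l with Shmt2 and with Mthfd2 (Pearson r = 0.963 and 0.946, n = 6), while Shmt2 and Mthfd2 were at 0.874. Psat1 and Tyms ran together at r = 0.914, and Psat1 and Mthfd2 ran opposite at -0.770. Among 8413 genes whose mean log2 CPM was 3 or more (the enzyme itself left out), Psat1 was most like Cyp51 (r = 0.996), Nap1l4 (0.994) and Mapre1 (0.994), and Mthfd2 most like Rb1 (0.995), Smurf2 (0.994) and Qsox1 (0.993). Genes with r above 0.95 numbered 182 for Psat1, 145 for Mthfd2, 184 for Mthfd1l, 83 for Tyms and 1 for Mthfd1, which was nearest to Arfgap1 (r = 0.956). The nearest to Mthfd1l were Dph6 (0.999), Nckap5l (0.996) and Mrpl58 (0.992), and to Tyms Trappc9 (0.991), Eif3k (0.990) and Nup107 (0.987). For Shmt2 they were Wipi1, Fars2 and Babam1 (0.992, 0.988 and 0.985), for Psph Tmem123, Ptrh2 and Pdxdc1 (0.992, 0.991 and 0.987), and for Phgdh Trim35, Snx4 and mt-Nd5 (0.972, 0.969 and 0.969). Shmt1, with its few reads, was nearest to Tmco1 (r = 0.992).

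The promoters of Psat1 and Tyms, the members that were lower without overlap, and of Mthfd1l, higher in αGlu 2 and αGlu 3, are shown as the 250 bases before a RefSeq start (GRCm38.p6). All 9 genes had an entry, in 10 windows. The window of Mthfd2 and the other window of Psat1 overlap exons of these genes and are not printed. That other Psat1 window held none of the letters searched. Capitals mark a CCAAT box or an E-box on either strand.
Psat1, chr19:15925060-15925309, minus strand: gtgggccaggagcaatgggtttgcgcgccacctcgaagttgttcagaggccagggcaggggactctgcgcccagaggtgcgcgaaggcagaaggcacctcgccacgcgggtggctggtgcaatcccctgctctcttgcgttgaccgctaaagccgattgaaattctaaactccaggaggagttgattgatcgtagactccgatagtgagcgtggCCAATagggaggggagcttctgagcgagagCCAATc
Tyms, chr5:30073626-30073875, minus strand: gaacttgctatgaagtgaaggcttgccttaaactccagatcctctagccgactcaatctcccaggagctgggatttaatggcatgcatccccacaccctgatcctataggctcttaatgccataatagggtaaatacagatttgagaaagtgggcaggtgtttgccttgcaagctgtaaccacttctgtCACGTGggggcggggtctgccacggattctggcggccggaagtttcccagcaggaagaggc
Mthfd1l, chr10:3972825-3973074, plus strand: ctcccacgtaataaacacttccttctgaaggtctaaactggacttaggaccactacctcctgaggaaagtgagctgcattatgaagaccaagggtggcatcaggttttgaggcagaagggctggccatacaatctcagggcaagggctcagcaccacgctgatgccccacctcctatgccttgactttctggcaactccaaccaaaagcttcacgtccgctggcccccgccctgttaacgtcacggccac
The letters searched on both strands were CCAAT, the E-box CACGTG, the E2F sites TTTCCCGC and TTTGGCGC, and the C/EBP-ATF element TGATGNAA, none of which contains another. CCAAT stood in 6 of the 10 windows (2 copies in this Psat1 window and 3 in that of Mthfd2), against 33.8% of 32851 windows. An E-box stood in 1 window, that of Tyms, against 6.02%, and 0 windows held either E2F sequence (0.895% and 0.417% of all) or the C/EBP-ATF element (3.45%). In the 11987 windows of tested genes, the shares were 35.5% for CCAAT and 8.55% for the E-box. They were 1.72% and 0.776% for the E2F sequences and 2.02% for the C/EBP-ATF element. Such matches describe the letters alone.

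The genes around the 9 were read from lists of their pathways, in all of which 0 genes passed the edgeR test with 6 libraries. Of 14 other folate enzymes and carriers tested, 2 were higher without overlap and 2 lower, near the shares of all genes. The formyl-folate dehydrogenase Aldh1l1 was lower without overlap, at 21.3 to 23.8 CPM in Ctr and 13.9 to 19.2 in αGlu. Ggh, the hydrolase of polyglutamated folate, was at 59.4 to 75.0 CPM in Ctr and at 73.0, 128 and 121 in αGlu.

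Of 15 purine synthesis genes, which spend one-carbon units, 1 was higher and 2 lower without overlap, no larger a share than among all genes (14.2% higher, 15.9% lower): Prps1, which makes the ribose donor, was at 39.4 to 50.5 CPM in Ctr and 52.9, 83.0 and 104 in αGlu, and Atic, which uses formyl-folate, was at 78.1 to 99.3 CPM in Ctr and 53.7 to 67.6 in αGlu. Of the other purine genes, Paics and Hprt were near Ctr, with log2 fold changes of 0.03 and -0.06. Among 15 pyrimidine and deoxynucleotide genes, 4 were lower without overlap and 0 higher, against 15.9% and 14.2% of all genes. Of these, Rrm2, the small subunit of ribonucleotide reductase, was at 12.6, 4.35 and 8.86 CPM in Ctr and at 0.746, 1.04 and 1.06 in αGlu, and Tk1, the thymidine kinase that salvages what Tyms makes anew, was at 6.59, 1.92 and 2.78 CPM in Ctr and at 0.401, 0.724 and 1.10 in αGlu. DESeq2 called both lower (adjusted p = 1.75e-08 and 0.00592). Dck and Ctps2, the most abundant of the list, were at log2 fold changes of 0.56 and 0.03 with overlap.

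Replication and division genes were mostly lower in αGlu, like Tyms. Over all genes, 15.9% were lower and 14.2% higher without overlap. Of 18 S phase genes 11 were lower without overlap and 0 higher, with a median log2 fold change of -0.66, and their summed level was 727 to 831 CPM in Ctr and 327 to 548 in αGlu. Most of that sum in Ctr was Pcna, and without it the list summed to 279 to 325 CPM in Ctr and 207 to 221 in αGlu. Pcna, the sliding clamp of DNA polymerase, was at 448 to 505 CPM in Ctr and at 327, 125 and 120 in αGlu, and the helicase subunits Mcm6 and Mcm7 had log2 fold changes of -0.52 and -1.15. Of 12 mitosis genes 8 were lower without overlap, among them Top2a, Birc5 and Aurka at log2 fold changes of -1.85, -2.41 and -1.27, but Mki67 was at 49.2, 13.2 and 18.8 CPM in Ctr and at 11.9, 108 and 138 in αGlu, below Ctr in αGlu 1 and above it in the other αGlu libraries. The mitosis list summed to 58.3 to 158 CPM in Ctr and 34.6 to 170 in αGlu, and without Mki67 to 45.2 to 108 and 22.7 to 32.4. The part of cell division in the level of Tyms was not tested.

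In contrast to Psat1, 5 of 12 tested genes of an ATF4-regulated list were higher without overlap and 0 lower, against 14.2% and 15.9% of all genes. They were Trib3, Sesn2, Nupr1, Atf5 and Slc1a4. Slc1a4, an amino acid transporter, was at 0.209 to 0.454 CPM in Ctr and at 0.631, 0.850 and 2.09 in αGlu. The listed genes of amino acid supply Asns, Aldh18a1, Slc7a11, Slc3a2 and Slc7a5 overlapped between the groups. The median log2 fold change of the list was 1.03, and 1.31 without αGlu 1. Atf5, a transcription factor of this response, was at 35.5 to 44.2 CPM in Ctr and 62.8, 143 and 149 in αGlu. Trib3, a pseudokinase induced with it, was at 2.88 to 3.45 CPM in Ctr and 5.51, 14.1 and 9.46 in αGlu. DESeq2 called 6 of the 12 higher and 0 lower, where it called 4.21% and 3.92% of all genes. Atf5 and Trib3 were among the 6 (DESeq2 adjusted p = 0.000578 and 0.00168). Atf4 itself was at 171 to 186 CPM in Ctr and at 178, 263 and 227 in αGlu, and Slc3a2, the heavy chain of amino acid exchangers, had a log2 fold change of 0.05, both with overlap. Of the enzymes named above as ATF4 targets, Mthfd2 and Shmt2 had the sign of this list's median, at log2 fold changes of 1.13 and 0.14. Psat1 and Phgdh, at -2.02 and -0.92, had the opposite sign. All of these but Psat1 overlapped between the groups, and the size for Phgdh rested on Ctr 1.

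**Figure D5:**
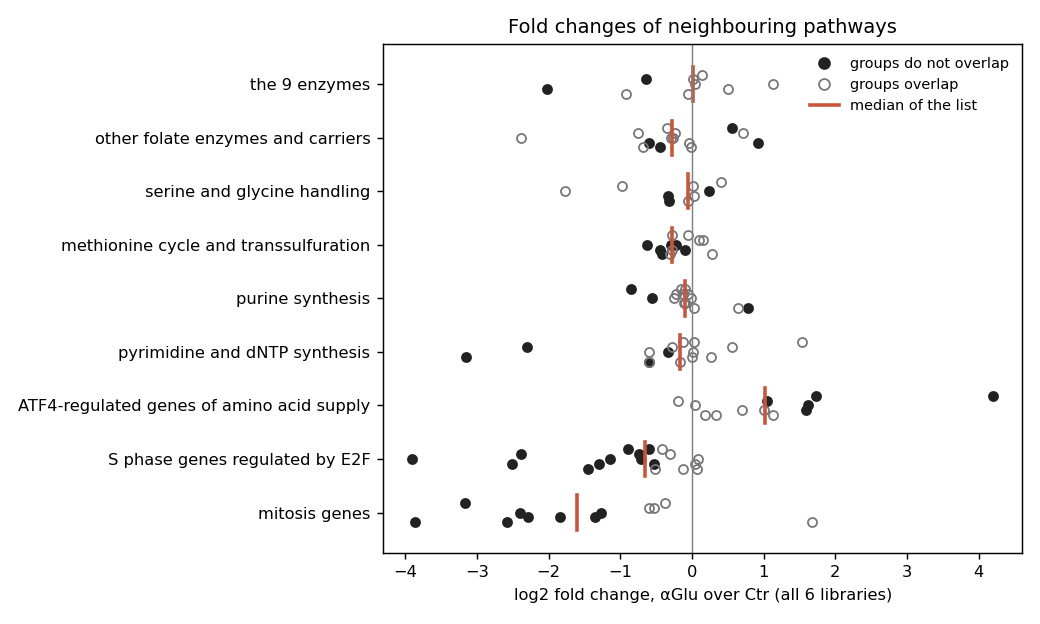
Log2 fold change of αGlu over Ctr (all 6 libraries) for tested genes of each pathway list, with filled points for genes without overlap between groups and a red line at the median of the list. The ATF4-regulated list has its median at 1.03, the S phase and mitosis lists at -0.66 and -1.60, and the 9 enzymes at 0.01 with Psat1 farthest to the left.

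Markers of other cells were also read. The 10 neutrophil markers summed to 107 to 160 CPM in Ctr and 186 to 609 in αGlu, nearly all of it Csf3r, with Ly6g and Retnlg at 0 reads. Without Csf3r the list summed to 1.62 to 6.44 CPM in Ctr and 1.43 to 3.04 in αGlu. The rest of the list was split. Ngp had 20, 39 and 9 reads in Ctr and 7, 0 and 0 in αGlu, and S100a9 had 21, 19 and 3 against 2, 2 and 0. Mpo, at 34, 62 and 9 reads in Ctr and 29, 3 and 1 in αGlu, overlapped. S100a8 had 20, 18 and 11 reads in Ctr and 10, 67 and 36 in αGlu, and Camp had 0, 0 and 0 against 0, 3 and 1. The 6 dendritic cell markers summed to 20.2 to 24.2 CPM in Ctr and 6.09 to 15.9 in αGlu, mostly Batf3, with Xcr1 at 0. Summed markers of fibroblasts, lymphocytes and mast cells did not exceed 7.18, 0.283 and 4.82 CPM in any library. The part of these differences in the levels of Psat1, Mthfd2 or Tyms was not tested.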

How the data were processed

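One table of 41549 genes was deposited for the 6 libraries, made with QIAGEN's RNA-seq Analysis Portal; aligner, annotation and use of strand are not given in the sources used here, and the submitters' processing notes name the build GRCm38. As deposited, counts are whole reads per gene. The deposited RPKM and TPM values are these reads scaled by the authors for exon length and depth; RPKM was not used further. A deposited CPM column, a signal from counts divided by an effective library size and empty for 10708 genes, was not used either. Each of the 24 value columns could be matched to a library.

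edgeR 4.0.16 in R 4.3.3 was run on the counts of all 6 libraries. Its expression filter (at least 10 counts, 15 in total) kept 11933 genes, which were scaled by TMM and tested two-sided with the quasi-likelihood method, group being the single covariate. P-values were adjusted after Benjamini and Hochberg over all genes, and a call required an adjusted p < 0.1 together with |log2 fold change| > 1. Standard errors were obtained from the F statistics, and 95% intervals from these errors. DESeq2 1.42.0, limma-voom (limma 3.58.1), a likelihood-ratio test, other scalings and filters, and the omission of each library were run as alternatives. Log2 CPM values carry a prior count of 2. The scripts were tested on simulated counts. The labels do not tie libraries to separate animals, so p-values measure the spread between these libraries.

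Positions are from GENCODE M21 (GRCm38), in which 41474 identifiers occurred, those of all 9 enzymes included; promoters are from RefSeq. Counts leave 3 libraries a group as the limit of precision, and Poisson intervals cover counting error only. The enzymes, pathway lists and motifs were chosen with earlier results of these data known. Arg1 and the markers beyond 1 CPM were added to describe the libraries. Further markers and ATF4-regulated genes were added to show how their lists were split. Other pathway genes were named by rule, besides the 3 genes most like each enzyme. The rule took the 2 with the highest mean CPM and the 2 with the smallest unadjusted p per list. One gene named by this rule is not reported here.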

Additional observations from a re-analysis of the deposited data

How the results depend on the processing

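The library αGlu 1 and the choice of test decided the calls; the fold changes moved less. Genes called numbered 0 with edgeR's quasi-likelihood test, 1117 with DESeq2 and 899 with the likelihood-ratio test, and 0 to 2290 with each library left out, the 2290 without αGlu 1. Of the 9 enzymes, 2 were called by DESeq2, 2 by the likelihood-ratio test, and 0 to 2 with each library left out; the cause was not tested. Under the replicate block, 17 genes and 1 enzyme (Psat1, log2 fold change -1.99, edgeR adjusted p = 0.070) were called. Deviations of libraries with the same number correlated at 0.0764, 0.0646 and 0.154, each above those of libraries with different numbers (-0.112 to 0.0459), but too weakly to treat the numbers as pairs. Without overlap between groups there were 3599 genes and 2 enzymes; in deposited TPM 1 enzyme remained (Psat1), and with each library left out, chosen after seeing the data, 3997 to 7851 genes and 2 to 6 enzymes. Without Ctr 2 there were 4 (Phgdh, Psat1, Shmt1 and Tyms, all lower). Small fold changes turned: with each library left out, the log2 fold change ran from -0.032 to 0.131 for Psph (lowest without αGlu 3), from -0.292 to 0.213 for Shmt1 (-0.292 without Ctr 2, -0.108 without αGlu 3) and from -0.084 to 0.0021 for Mthfd1 (highest without Ctr 1), which was 0.030 by library size alone. The median log2 fold change of all genes shifted from 0.02 to 0.10 under that scaling. Shmt1 had no value under the filter of 1 CPM in 3 libraries. Phgdh, Psat1, Tyms, Shmt2, Mthfd1l and Mthfd2 kept their sign under all 15 alternatives.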

Other observations

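A further list joined the methionine cycle, which takes up the methyl groups that folate supplies, with transsulfuration and polyamine synthesis. Its transsulfuration genes Cbs and Cth had 0 or 1 reads per library and were not tested. In all, the list had 13 tested genes. Of these, 6 were lower in αGlu without overlap and 0 higher, against 15.9% and 14.2% of all genes. Their median log2 fold change was -0.27. Srm, spermidine synthase, was at 15.6, 15.7 and 14.5 CPM in Ctr and at 10.8, 10.96 and 11.8 in αGlu, and Amd1, which makes its substrate, was at 93.4, 94.4 and 103 CPM in Ctr and at 85.5, 63.0 and 68.8 in αGlu. Mat2a, the enzyme that makes S-adenosylmethionine, was at 172 to 185 CPM in Ctr and at 135 to 155 in αGlu. These 3 did not overlap between the groups and were below the fold limit of a call. Ahcyl1, the most abundant of the list, was at 185 to 234 CPM in Ctr and at 222, 152 and 142 in αGlu, with overlap.

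Of 9 tested genes of serine and glycine handling, 1 was higher and 2 lower without overlap, where 14.2% and 15.9% of all genes were. Sfxn3, a carrier of the mitochondrial serine transporter family, was at 55.3 to 56.3 CPM in Ctr and at 42.3 to 47.1 in αGlu, with a log2 fold change of -0.34 (edgeR adjusted p = 0.149). Gcsh, the lipoyl carrier of the glycine cleavage system, was at 20.9 to 21.8 CPM in Ctr and at 15.7 to 18.4 in αGlu. Dld, which serves that system and other dehydrogenases, was at a log2 fold change of 0.03 with overlap. Among the genes named from these lists, αGlu 1 lay below every Ctr library for Srm, Amd1, Mat2a, Sfxn3 and Gcsh, as it did for Psat1. Of the αGlu libraries it was the nearest to Ctr for Amd1, Mat2a and Psat1, and not for Srm, Sfxn3 and Gcsh.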
